A study of Rattus norvegicus with 2 samples.

Results

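Glutamate uptake and the glutamine cycle were followed through 9 genes in cultures of rat astrocytes, glial cells that support neurons. The 9 were taken by name and were Slc1a1, Slc1a2, Slc1a3, Slc1a4, Slc1a5, Slc38a3, Slc7a11, Glul and Glud1, out of 14218 genes named on the array. All 16 probe sets that a platform annotation table gives to 1 of these genes alone were used, of 31099 on the array; 5 genes had several probe sets and 4 had 1. A probe set is a group of short oligonucleotides that read 1 stretch of a transcript and give 1 signal. The cultures came from the hippocampus of Sprague-Dawley rats at embryonic day 18. In the control culture the vector IRES2-RFP supplied a red fluorescent protein, and the 5ppase culture expressed the same protein together with 5ppase (5ppase-IRES2-RFP), so both carried a vector and both are labelled as of normal genotype. The series sets astrocytes with active calcium signalling (control) against astrocytes without it (5ppase). What 5ppase abbreviates is not stated in the labels; it is a usual short name of inositol phosphate 5-phosphatases, which inactivate inositol trisphosphate, a messenger of calcium release inside the cell. The promoter that drove the vectors, the share of cells that expressed them and the number of animals behind each culture are given in none of the sources used.

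Glutamate released at synapses is cleared mainly by astrocytes. Sodium-driven carriers of the Slc1 family bring it into the cell, glutamine synthetase joins it with ammonia to make glutamine, and glutamine leaves through carriers of the Slc38 family to be taken up again by neurons, which turn it back into glutamate. Some of the glutamate is burned in mitochondria through glutamate dehydrogenase, and some is traded for cystine, which feeds glutathione synthesis.

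Each group was 1 array of total RNA, so every value below describes these 2 arrays only, with no replicate error, no test and a precision limited by the number of arrays. Signals are linear intensities; ratios are log2 of 5ppase over control. The floor was 62.0, the 40th percentile of all signals, and is not a detection call. No ratio of a single gene is printed where either array lay under it; in list medians such a signal was raised to the floor. A gene was compared where both arrays lay above the floor and at least 1 reached the 60th percentile (208), at its probe set with the higher mean signal; 8261 genes were, with a median ratio of -0.017. As a yardstick of probe noise, the ratios of 2 probe sets of 1 gene had a spread (SD of their difference over the square root of 2) of 0.26 across 1883 genes. Both probe sets were read on the same 2 arrays, so this spread does not include variation between cultures, RNA preparations or hybridisations. The SD of the ratio over all compared genes was 0.40. Signals of different probe sets cannot be ranked against each other, because each has its own affinity, so no order of the 9 genes by level is given. With 2 arrays, likeness of pattern between genes is also undefined and no genes were named by it.

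Of the 9 genes, glutamine synthetase (Glul) and the glutamate carrier Slc1a3 had lower signals in 5ppase, by 1.65-fold and 1.52-fold, and the cystine/glutamate exchanger Slc7a11 had a higher one, by 1.81-fold. Slc1a4, Slc1a5 and Glud1 were higher by 1.14-fold to 1.34-fold. Slc1a1, Slc1a2 and Slc38a3 lay under the floor on both arrays at every probe set, as did 23.8% of all named genes at their brightest one. Of the 6 that were compared, none was 2-fold apart in either direction, beside 2.92% of compared genes. The 3 under the floor could not be called either way. By sign alone 2 were lower and 4 higher, beside 52.1% and 47.9%. At 1.5-fold, 2 were lower and 1 was higher, beside 5.46% and 5.25%. The 6 genes above the floor are not a sample of all 9, and their median of 0.27 is given only as a value beside -0.012 over the 10255 genes with a mean signal above the floor. Transcript levels in bulk RNA cannot tell fewer cells of a type from less RNA per cell.

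**Figure D1:**
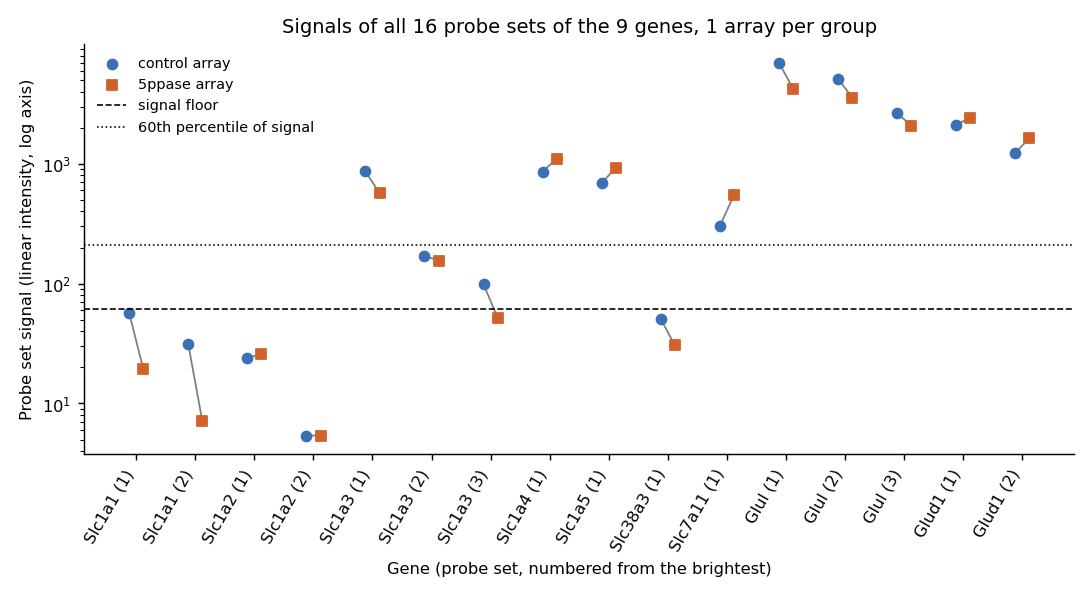
Signal of each of the 16 probe sets (log axis, linear intensity units) on the control array (circles) and the 5ppase array (squares), with lines joining the pair; the dashed line is the floor (62.0) and the dotted line the 60th percentile of signal (208). All 3 Glul probe sets and all 3 Slc1a3 probe sets are lower in 5ppase, Slc7a11 is higher, and the 5 probe sets of Slc1a1, Slc1a2 and Slc38a3 lie under the floor on both arrays.

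Slc1a3 encodes GLAST, the glutamate carrier that astrocytes express early in development. Its brightest probe set gave 864 in control and 569 in 5ppase (ratio -0.60). Of the compared genes, 417 (5.05%) had a ratio at or below this one. The second probe set gave 171 and 155 (-0.13), a difference smaller than the spread of 0.26 between probe sets and at signals too low for the comparison. The third gave 98.9 in control and 51.5 in 5ppase; the latter is under the floor, so only a bound can be given, at least 1.60-fold lower. All 3 probe sets were thus lower in 5ppase, but by amounts that differed by 0.47 between the first and the second, and the second is of the _a_at kind, which can read several transcripts of a gene.

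An upstream window was found for 6 of the 9 genes in the RefSeq promoter table (build GRCr8). These windows, 10 in all, were searched over the 250 bases before the start site for elements that genes of similar ratio might share. The motifs, on both strands, were the amino acid response element TGATGNAA, the antioxidant response element TGACNNNGC, the cAMP response element TGACGTCA, the E-box CACGTG and the GC box GGGCGG, found in 3.40%, 10.1%, 1.59%, 5.59% and 30.5% of the 33469 windows of the table. The window before the outermost Slc1a3 start, chr2:59557809-59558058 on the minus strand, holds none of the 5 and is shown, in lower case throughout, as the upstream sequence of the glutamate carrier that was lower in 5ppase.
Slc1a3: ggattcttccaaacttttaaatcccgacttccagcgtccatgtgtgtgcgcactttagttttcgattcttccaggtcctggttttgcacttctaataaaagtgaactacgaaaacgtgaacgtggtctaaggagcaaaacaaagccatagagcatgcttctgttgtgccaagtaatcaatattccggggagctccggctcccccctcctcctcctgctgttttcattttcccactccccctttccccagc
No match says only that these letters are not in this window.

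Slc1a2 encodes GLT-1, the carrier that takes up most synaptic glutamate in the adult forebrain. Its probe sets gave 24.1 and 5.40 in control and 25.7 and 5.40 in 5ppase. All 4 signals are under the floor and close to each other between arrays. Slc1a1 encodes EAAC1, a carrier found mainly in neurons, and gave 57.2 and 31.5 in control and 19.4 and 7.10 in 5ppase. Both of its probe sets were lower in 5ppase, but under the floor on both arrays, so no fold is given; with a pseudocount of 6.4 in place of the floor it was the only one of the 9 to be 2-fold lower. The first lay at the 38.8th percentile of all signals in control and at the 20.0th in 5ppase. Slc1a3 was thus the only glutamate carrier of these 3 with signals above the floor.

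Slc1a4 and Slc1a5 belong to the same family but carry neutral amino acids and not glutamate. Slc1a4 (ASCT1) exchanges serine, alanine and cysteine and gave 862 in control and 1105 in 5ppase (ratio 0.36), a value reached or exceeded by 996 compared genes (12.1%). Slc1a5 (ASCT2) carries glutamine among its substrates and gave 692 and 928 (0.43), reached or exceeded by 769 (9.31%). Each has a single probe set, so neither value has an internal repeat. The ratios are 1.40 and 1.66 times the probe set spread, and the central 95% of compared genes ran from -0.81 to 0.82.

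The Slc1a4 window was the only one of the 10 with a match to the amino acid response element, the site read by the stress factor ATF4, and to the E-box. Its 2 matches lie 235 and 20 bases before the listed start (5′ end of each match), and 30 bases around each are shown on the minus strand, chr14:98761779-98761808 and chr14:98761565-98761594, with the match in capitals.
Slc1a4 amino acid response element: cgcctccagcgTTGCATCAtccagccagca
Slc1a4 E-box: gtccaagttcctCACGTGctgctgcttaga
A match is a description of the letters and not of a site in use. The Slc1a4 and Slc7a11 windows overlap the annotated span of their genes, and that of Slc7a11 held none of the 5 motifs.

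Slc7a11 (xCT) is the light chain of the exchanger that imports cystine and releases glutamate. It gave 303 in control and 549 in 5ppase (ratio 0.86) at its single probe set. Only 190 of the compared genes (2.30%) had a ratio as high, and this value was 3.35 times the probe set spread. Both yardsticks pool compared genes of all signal levels. Slc7a11 lay at the 65.7th percentile of all signals in control and at the 75.7th in 5ppase, and no yardstick was made for that level. Its partner, the heavy chain Slc3a2, which brings several amino acid carriers to the membrane, gave 13567 and 12969 (-0.065), so the light chain and the heavy chain did not have the same ratio on these arrays. The genes that turn cystine and glutamate into glutathione all differed by less than 1.5-fold: the catalytic subunit of the rate-limiting enzyme, Gclc, gave 1538 and 1355 (-0.18), its second probe set 999.9 and 1003 (0.0039), and glutathione synthetase, Gss, gave 990 and 1099 (0.15). Gclm, the modifier subunit of the rate-limiting enzyme, named after its values were seen, had the largest ratio of the 3 genes (446 and 566, 0.34).

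Slc38a3 (SNAT3) is the glutamine carrier of astrocytes that can run in the direction of release. Its only probe set gave 50.6 in control and 30.5 in 5ppase, both under the floor, so no fold is given.

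Glul encodes glutamine synthetase, the astrocyte enzyme that turns glutamate and ammonia into glutamine. It had the most internal repeats of the 9 genes, with 3 probe sets above the floor on both arrays. They gave 6985, 5134 and 2669 in control and 4222, 3570 and 2067 in 5ppase. Every probe set was lower in 5ppase, with ratios of -0.73, -0.52 and -0.37, or 1.65-fold, 1.44-fold and 1.29-fold. The brightest ratio was 2.84 times the probe set spread, and 267 compared genes (3.23%) had one at or below it. The lowest and highest ratios of the 3 differed by 0.36, so the size of the difference depends on the probe set but its direction did not.

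The window before the outermost of 2 listed Glul starts, chr13:68519250-68519499 on the plus strand, is shown as that of the enzyme that was lower in 5ppase. It holds 1 GC box, the site of Sp1-type factors, in capitals, and none of the other 4 motifs. The window at the second Glul start, chr13:68575816-68576065, also held 1 GC box. Which of the 2 starts was used in these cultures was not tested.
Glul: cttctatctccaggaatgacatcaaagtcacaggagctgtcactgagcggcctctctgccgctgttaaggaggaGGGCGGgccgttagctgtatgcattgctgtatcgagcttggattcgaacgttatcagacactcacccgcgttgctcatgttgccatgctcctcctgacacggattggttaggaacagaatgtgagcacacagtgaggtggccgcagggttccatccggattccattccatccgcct
The Glud1 window held 2 GC boxes. This motif was in 30.5% of all windows, and its part in the ratios was not tested.

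Glud1 encodes glutamate dehydrogenase, the mitochondrial enzyme that turns glutamate into 2-oxoglutarate and ammonia. Its probe sets gave 2122 and 1240 in control and 2417 and 1630 in 5ppase. Both were higher in 5ppase, with ratios of 0.19 and 0.39. The first is smaller than the probe set spread and was reached or exceeded by 1978 compared genes (23.9%), the second by 862 (10.4%). The synthetic enzyme Glul and the catabolic enzyme Glud1 thus had ratios of opposite sign at all 5 of their probe sets.

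**Figure D2:**
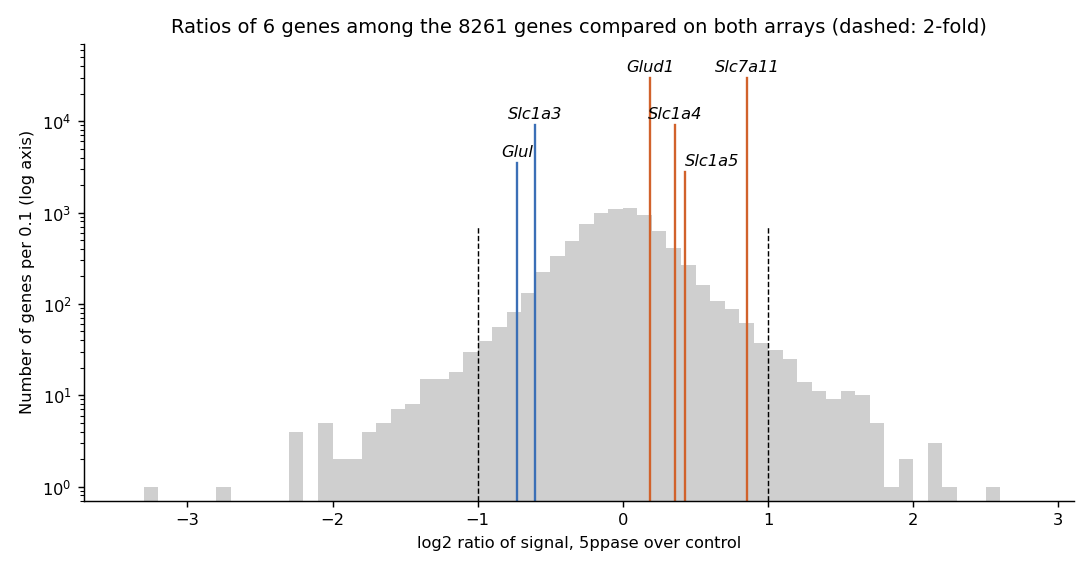
Number of genes (log axis) by log2 ratio of signal, 5ppase over control, for the 8261 genes compared on both arrays (grey bars, 0.1 wide), with the 6 measurable genes as lines at their brightest probe set. Glul (-0.73) and Slc1a3 (-0.60) lie on the low side and Slc7a11 (0.86) on the high side, all inside the dashed lines at 2-fold.

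Other genes that handle glutamate and glutamine were read from a list of 47 symbols, of which 42 were named on the array. None of the 31 that were compared was 2-fold apart (2.92% of all compared genes were), and 29 differed by less than 1.5-fold, a share of 93.5% against 89.3% of all compared genes. Over the 35 with a mean signal above the floor, 19 had a positive and 16 a negative ratio, with a median of 0.046. Both exceptions at 1.5-fold are named after their values were seen. Ajuba, a scaffold protein that binds GLT-1, gave 3340 and 2144 (-0.64), whereas its dimmer probe set was higher in 5ppase (376 and 449, 0.26). Slc7a8, the light chain of a neutral amino acid exchanger, gave 463 and 774 (0.74) at its only one.

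Among carriers of glutamine and other neutral amino acids, Slc38a2 gave 2470 and 3097 (0.33) and Slc7a5, the large neutral amino acid exchanger, gave 777 and 1015 (0.38). Of the 6 in this list with a mean signal above the floor, 3 were higher and 3 lower; the lower ones, named after their values were seen, were Slc38a1 (-0.35), Slc7a6 (-0.24) and Slc38a7 (-0.018). Arl6ip5, which slows the EAAC1 carrier, gave 4193 and 4965 (0.24), and its second probe set a ratio of 0.26. The remaining plasma membrane glutamate carriers on the list, 3 on the array, did not reach the floor on either array; the brightest were Slc7a13 (10.7 and 27.4) and Slc1a6 (14.8 and 1.80). The vesicular glutamate carrier Slc17a7, a marker of excitatory neurons, gave 41.0 and 84.3, above the floor in 5ppase only, as 4.15% of named genes were.

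Above the floor in control only were 3 genes of the list, as 3.24% of named genes were. Prodh, which starts the breakdown of proline towards glutamate, gave 191 in control and 57.4 in 5ppase, at least 3.08-fold lower. Slc25a18, a mitochondrial glutamate carrier, gave 97.3 and 19.3, at least 1.57-fold lower. Gpt, an alanine aminotransferase, gave 89.6 and 13.3, at least 1.45-fold lower. All 3 were too dim in control to enter the comparison, and each bound is the control signal over the floor. The second Prodh probe set gave 8.80 and 3.50, both under the floor. The enzymes of the list that were compared, 13 in number, all lay within 1.5-fold, from -0.29 to 0.39.

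**Figure D3:**
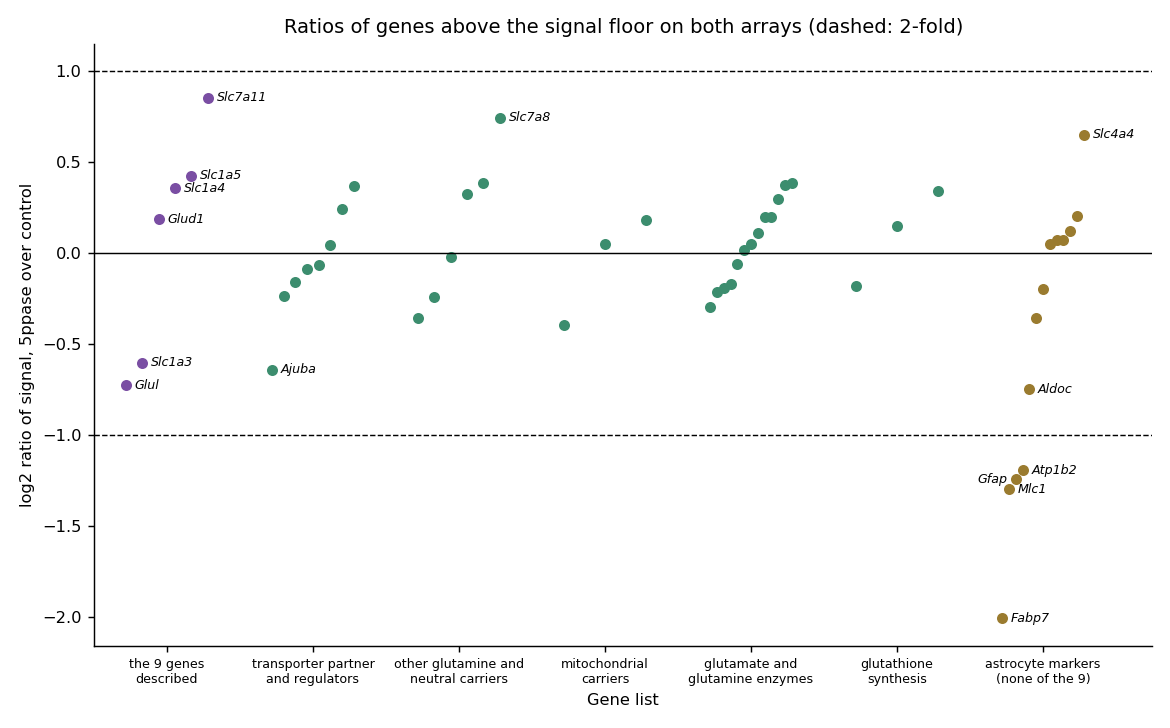
Log2 ratio of signal, 5ppase over control, of every gene above the floor on both arrays at its brightest probe set, by list; solid line at 0, dashed lines at 2-fold. The 6 genes above the floor among the 9 described stay between the dashed lines. So do the other glutamate and glutamine lists, with Slc7a8 (0.74) and Ajuba (-0.64) outermost, whereas 4 astrocyte markers lie below the lower one.

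Astrocyte markers other than the 9 genes were lower in 5ppase in part, as Glul and Slc1a3 were. Of 20 on the list 18 were named on the array and 13 compared, each at its brightest probe set. Of these, 4 were at least 2-fold lower (1.42% of compared genes were), none was 2-fold higher, 7 had a negative and 6 a positive ratio. Gfap, the astrocyte intermediate filament protein, had a ratio of -1.24 and Aldoc, a brain form of the glycolytic aldolase, gave 3129 and 1862 (-0.75), while S100b was at 3483 and 3611 (0.05). The largest positive ratio was that of Slc4a4 (494 and 777, 0.65), followed by Id4 (0.20), Vim (0.12), Cst3 (0.07) and Gja1 (0.07). The second Gja1 probe set was 2-fold higher (121 and 249, 1.04). Second probe sets gave 0.95 for Slc4a4 and 0.59 for Id4, but -0.22 for Clu and -0.51 for Fgfr3. Slc4a4, Id4, Vim, Cst3, Gja1, Clu and Fgfr3 were named after their values were seen. Aqp4 was above the floor in control only (432 and 25.1), and Aldh1l1 was close to it on both (62.9 and 49.8). The 4 markers that were 2-fold lower were Gfap, Fabp7 (-2.01), Mlc1 (-1.30) and Atp1b2 (-1.19), of which the naming rule covers only Gfap; the other 3 and the next 3 were chosen after seeing their values. Ntsr2, Gjb6 and Acsl6, markers of mature astrocytes, were under it on both arrays, as Slc1a2 was. Summed signals, here and below, weight each gene by the signal of its probe set and do not measure the amount of a cell type. The summed signal of the list was 150132 in control and 132907 in 5ppase, and its median over the 14 members with a mean above the floor was -0.28. Within that sum Gfap went from 17525 to 7408 and Fabp7 from 5972 to 1486, while Vim went from 37513 to 40821. Whether the lower signals of these markers have a part in the Glul and Slc1a3 values was not tested.

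Markers of other cells also differed between the arrays. Summed signals were 5969 and 12978 for 13 neuron markers, led by Stmn2 (3766 and 11065) with Map2 next (1737 and 1210), and 8 of the 13, among them Rbfox3, Snap25 and Dcx, were under the floor on both arrays. That sum rose by no more than Stmn2 did. Of the 3 neuron markers compared, Tubb3 (87.9 and 290, 1.72) and Stmn2 (1.55) were 2-fold higher in 5ppase and Map2 was lower (-0.52). Of all compared genes, 124 of 8261 were 2-fold higher. The second Stmn2 probe set gave 1925 and 3471 (0.85), less than 2-fold, and the second Map2 probe set 193 and 86.8 (-1.15). Sums were 1321 and 2619 for 10 microglial markers, most of it Tmem119, with Csf1r at 68.8 and 77.5 and 6 under the floor. They were 3861 and 2245 for 10 oligodendrocyte markers (5 under the floor), with Cnp at 996 and 737 and Pdgfra at 1018 and 644. Most of that fall was Cldn11 (1371 and 47.2, at least 22.1-fold lower), while Cspg4 was higher (262 and 629, 1.27). Sums were 118931 and 114855 for 10 fibroblast and meningeal markers (2 under the floor), which Col1a1 (32792 and 32414), Col3a1 (25144 and 27757) and other bright matrix genes dominate. Of the 8 compared, Mgp (-3.26) and Igfbp5 (-2.06) were 2-fold lower, beside 1.42% of all compared genes, and Thy1 was higher (0.87). For 7 endothelial markers the sums were 1403 and 642, with 5 under the floor. Most of both was Ocln (1212 and 384, -1.66), the only 1 compared, with Flt1 next at 74.1 and 127. The endothelial sum fell by no more than Ocln did. Other than the 2 brightest of each list, these markers were named after their values were seen. The part of these cells in the values of the 9 genes was not tested. Inpp5a, the rat gene of a 5-phosphatase, gave 994 and 1022 at its brightest probe set. A dimmer probe set of the gene gave 10.4 and 134, above the floor in 5ppase only. Neither checks the labels, since the construct's gene and species are not named.

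**Figure D4:**
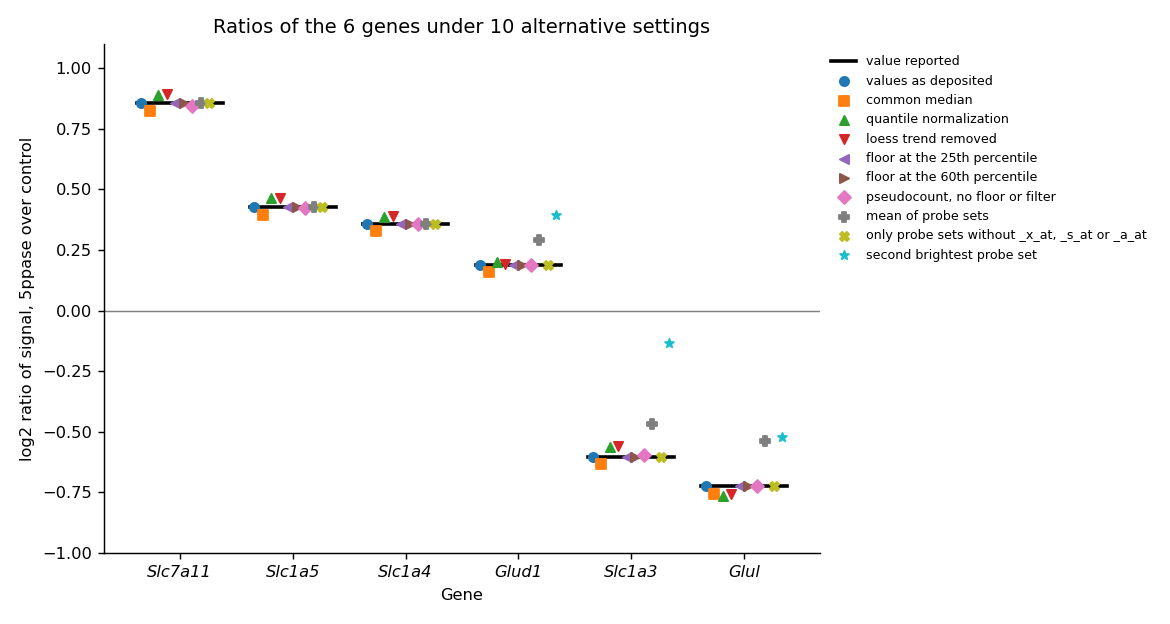
Log2 ratio of signal, 5ppase over control, of the 6 measurable genes as reported (black bars) and under up to 10 other scalings, floors and probe set rules (symbols); genes with 1 probe set have no value for the second brightest. No symbol crosses 0, and the second Slc1a3 probe set (-0.13) is the farthest from its bar. The other floors could not change these ratios, nor could probe set rules where a gene has 1 probe set, and the values as deposited barely did.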

How the data were processed

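Total RNA (6 ug) of 1 control and 1 5ppase culture was labelled with biotin and hybridised to an Affymetrix rat array, per the labels' protocols. The authors deposited linear signal intensities per probe set; MAS5 is the tool in the submitters' processing notes, whose version and settings none of the sources used gives. Both arrays have a trimmed mean of 500.2 (2% removed at each end), as scaling to one target would give.

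From these intensities, each array was brought to a shared trimmed mean, signals under the floor were raised to it, and log2 ratios were taken with Python 3.11.15 and pandas 2.3.3. Where a signal was raised to the floor, the ratio is understated. Of 31099 probe sets 20832 carried 1 symbol. With 1 array per group there was no test. The script was tested on simulated data. The genes and lists were chosen with earlier results of these data known. Named were all 9 genes; in each pathway list genes 2-fold apart or above the floor on 1 array only, otherwise the 2 brightest; Gfap, Aqp4, Aldh1l1, S100b, Aldoc and Inpp5a; and the 2 brightest markers of other cells. Others are marked in the text as named after their values were seen. Slc1a7 was reached only as a synonym of Slc1a5 and was left out of its list. Alternatives changed the scaling, floor, pseudocount (6.4), probe set rule and fold threshold. Upstream sequences came from RefSeq (GRCr8); no sample column was left unused (0).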

Additional observations from a re-analysis of the deposited data

How the results depend on the processing

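The ratios of Slc1a4, Slc1a5, Slc7a11, Glul and Glud1 stayed within the probe set spread of 0.26 of the reported value under each alternative. Those 5 and Slc1a3 also kept their sign. The alternatives were quantile normalization, loess, a common median, the deposited values, both other floors, the pseudocount and each probe set rule giving a value. The other floors could not change these ratios, since these genes lay above them, and the deposited values barely could. Nor could the probe set rules change Slc1a4, Slc1a5 or Slc7a11, with 1 probe set each. The third Glul probe set (-0.37), which no setting used alone, lay 0.36 from the reported -0.73, outside this spread. Slc1a3 was -0.13 at its second brightest probe set. The median of the genes described was -0.21 with the floor at the 25th percentile (8 genes), where 2 more genes pass, and -0.13 over the 3 genes with a second probe set above the floor. With the pseudocount and no filter 1 of the 9, Slc1a1, was 2-fold lower. So were 5 of the 42 other pathway genes (Gpt, Prodh, Slc17a6, Slc1a6 and Slc25a18). Over all genes 2087 of 14218 were 2-fold apart in that setting, counting both directions. The astrocyte marker median was then -0.55. With second probe sets that median was 0.59 over 5 genes. At 1.5-fold, 2 and 1 of the 6 compared genes described and 1 and 1 of the other pathway genes were lower and higher. Over all genes 241 were 2-fold apart, against 122 with the floor at the 60th percentile, 2087 with the pseudocount, 65 with second probe sets, 885 at 1.5-fold and 53 at 3-fold; fewer or more genes were compared in the first 3. The cause was not tested further. No paired analysis was possible because each group has 1 array. Signals near or under the floor limit what can be said of Slc1a1, Slc1a2 and Slc38a3.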
